A study of Mus musculus with 9 samples.

Results

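The CC chemokines examined here are 10 small secreted proteins that draw eosinophils, monocytes and other leukocytes into tissue: Ccl2, Ccl5, Ccl7, Ccl8, Ccl11, Ccl17, Ccl20, Ccl22, Ccl24 and Ccl28. Their rows were found by matching these symbols to the Ensembl gene identifiers of the deposited table, and all 10 were among its 21930 rows. The data are poly(A) RNA sequencing libraries of nasal mucosa from wild-type (WT) mice, 9 in all and 3 in each of 3 groups. The papain+MSC-Exos group received papain, a plant cysteine protease, at 20 µg in 20 µl PBS into the nose on days 0 to 2 and 7 to 11, and exosomes of mesenchymal stromal cells (MSC-Exos) into the nose on days 7 to 11. The papain group, labelled eCRS for a model of eosinophilic chronic rhinosinusitis, received the same papain with PBS in place of the exosomes. The control group is labelled with no treatment, and tissue of the mice was taken on day 12. The sources used here do not give the strain, age or sex, the donor of the stromal cells, or whether controls received PBS. They also do not say whether libraries of a group are different mice. The p-values below hence cover only library-to-library spread, part of which may be technical.

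CC chemokines act through G protein-coupled receptors named CCR on leukocytes. In type 2 inflammation of the airways, the cytokines IL-4 and IL-13 signal through STAT6 in epithelium, fibroblasts and macrophages, which then release eotaxins (Ccl11 and Ccl24) that bind CCR3 on eosinophils and CCR4 ligands (Ccl17 and Ccl22) that attract Th2 cells. Ccl2 and Ccl7 draw monocytes through CCR2, Ccl5 acts through receptors that include CCR1 and CCR3, mouse Ccl8 is a ligand of CCR8, Ccl20 is made by inflamed epithelium for CCR6, and Ccl28 is made by mucosal and glandular epithelium for CCR10 and CCR3.

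Of the 10 genes, 5 had a promoter in the RefSeq table used (GRCm38.p6), each as 250 bases before to 50 bases after the start site. The upstream parts of the 4 whose genes were tested are shown, because these genes moved together after papain and differed in their matches to motifs of the pathways above. They are Ccl17 (chr8:94810203-94810452), Ccl20 (chr1:83116516-83116765), Ccl8 (chr11:82114935-82115184) and Ccl28 (chr13:119623569-119623818), on the plus strand, written 5′ to 3′ with motif matches in capitals.
Ccl17: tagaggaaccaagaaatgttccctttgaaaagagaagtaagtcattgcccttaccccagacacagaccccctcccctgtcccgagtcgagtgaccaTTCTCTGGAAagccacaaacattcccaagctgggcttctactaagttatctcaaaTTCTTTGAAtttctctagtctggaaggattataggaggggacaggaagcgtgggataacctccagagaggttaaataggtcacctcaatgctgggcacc
Ccl20: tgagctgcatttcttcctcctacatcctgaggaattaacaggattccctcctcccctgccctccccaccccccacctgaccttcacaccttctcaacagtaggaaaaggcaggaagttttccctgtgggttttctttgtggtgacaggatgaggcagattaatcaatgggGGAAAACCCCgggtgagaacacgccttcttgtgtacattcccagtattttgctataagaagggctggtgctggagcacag
Ccl8: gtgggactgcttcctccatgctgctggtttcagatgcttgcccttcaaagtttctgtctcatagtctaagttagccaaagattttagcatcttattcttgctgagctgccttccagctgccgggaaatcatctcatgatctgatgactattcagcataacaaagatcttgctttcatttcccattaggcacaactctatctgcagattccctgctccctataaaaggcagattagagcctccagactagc
Ccl28: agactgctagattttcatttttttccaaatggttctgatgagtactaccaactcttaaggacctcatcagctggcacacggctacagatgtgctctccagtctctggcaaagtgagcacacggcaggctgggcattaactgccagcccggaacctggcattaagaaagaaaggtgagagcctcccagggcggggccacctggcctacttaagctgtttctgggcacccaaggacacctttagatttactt
The motifs searched on both strands were TTCNNNGAA and TTCNNNNGAA, forms bound by STAT proteins, and the kappaB consensus of NF-kappaB. Ccl17 held TTCTTTGAA starting at position -99 and TTCTCTGGAA starting at position -154 from the start site, and Ccl20 held GGAAAACCCC, a kappaB match, starting at -80, and these 3 matches did not overlap. No match of these letters was found in the windows of Ccl8, Ccl28 or Ccl22. Among 32817 promoters of the same length, 8.29% held TTCNNNGAA, 6.94% held TTCNNNNGAA and 4.5% held the kappaB consensus, and a match describes letters, not binding.

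Levels are in FPKM, a fragment count divided by transcript length and library size, so different genes can be set side by side per length. A set of abundant gland products (odorant-binding lipocalins, major urinary proteins and Bpifb9 proteins) took 22.7% to 33.1% of summed FPKM in papain+MSC-Exos libraries, 32.1% to 35.8% in papain libraries and 38.0% to 41.0% in control libraries. The median log2 change of the genes tested was 0.56 for papain+MSC-Exos against papain, 0.76 for papain+MSC-Exos against control and 0.19 for papain against control. Each result is therefore given as deposited and on scaled values, in which a library was divided by its median gene ratio to the geometric mean of the libraries, and there these medians were -0.00587, 0.00915 and -0.00399. The factors lay between 0.710 and 1.75, and a rough estimate of depth was 15.1 to 24.6 M fragments per library. Tests were made with limma on log2(FPKM + 1), which understates the change of low genes, with p-values adjusted over every gene tested. In bulk tissue, fewer cells of a type and less RNA per cell cannot be told apart.

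After papain, 7 of the 8 chemokines that passed the filter of 1 FPKM in 3 libraries were called higher than in control and 0 were called lower, on both scales. At an unadjusted p under 0.05 the limma counts were also 7 and 0. Over all genes tested, 3.01% were called higher as deposited and 5.77% after scaling, and 0.518% and 4.15% were called lower. In papain+MSC-Exos libraries against papain libraries, 5 were called lower and 2 higher as deposited, where 0.730% of genes were called lower and 63.0% higher, and 6 were called lower and 0 higher after scaling, where 16.2% were called lower and 13.4% higher (1 was higher at an unadjusted p under 0.05). In papain+MSC-Exos libraries against control, 4 were called higher and 0 lower as deposited (0 lower also at an unadjusted p under 0.05), where 84.3% of genes were called higher and 0.526% lower, and 2 were called higher and 1 lower after scaling, where 12.3% and 15.6% were. With no filter the higher calls after papain numbered 4 as deposited and 7 after scaling. The 2 exosome comparisons and the papain comparison share libraries, so their counts are not independent of each other. Ccl2 and Ccl22 did not pass the filter and are described by their levels. As deposited, Ccl11 and Ccl24 reached 1 FPKM in papain libraries alone, so passing the filter fixed that they differ from the other groups. Ccl7 and Ccl17 also passed it through papain libraries, and the counts above are a description.

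**Figure D1:**
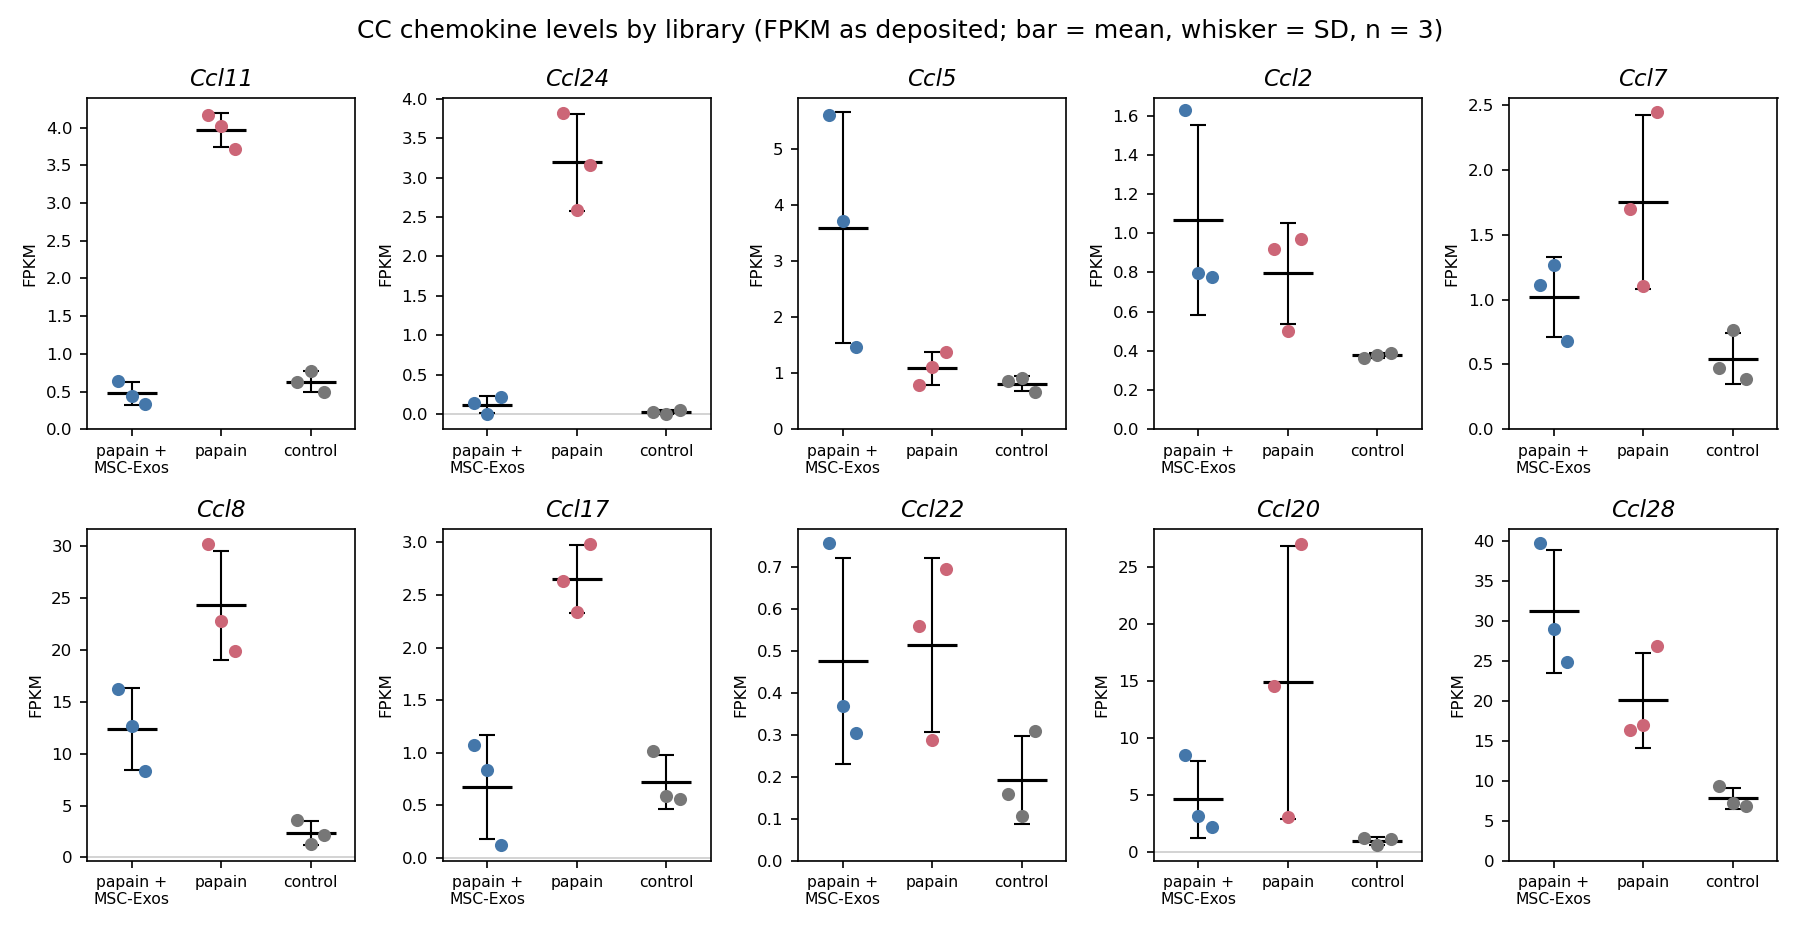
Level of each CC chemokine in FPKM as deposited (y axis) in the 3 papain+MSC-Exos, 3 papain and 3 control libraries (x axis). Points are libraries, bars are means and whiskers are SD. Ccl11, Ccl24, Ccl17 and Ccl8 have every papain library above every library of both other groups. Ccl28, Ccl5, Ccl2 and Ccl22 have their highest library in the papain+MSC-Exos group.

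As deposited, the eotaxins were high in papain libraries and close to control in papain+MSC-Exos libraries, while scaled Ccl11 was below control in the latter. Ccl11 (eotaxin-1, ENSMUSG00000020676, chr11:82057823-82062955) had 0.644, 0.443 and 0.340 FPKM in papain+MSC-Exos libraries, 4.17, 4.03 and 3.72 FPKM in papain libraries and 0.627, 0.772 and 0.498 FPKM in control libraries. The papain libraries lay far above the other 6 libraries, which overlapped each other as deposited. The log2 change of Ccl11 from papain to papain+MSC-Exos libraries was -1.76 ± 0.16 as deposited (SE, limma adjusted p = 2.44e-06) and -2.04 ± 0.13 after scaling (adjusted p = 1.36e-04). Papain against control gave 1.61 ± 0.16 as deposited (adjusted p = 2.46e-06) and 1.57 ± 0.13 after scaling (adjusted p = 2.14e-04). Against control, papain+MSC-Exos libraries did not pass the threshold as deposited (log2 change -0.15, adjusted p = 0.391). After scaling, Ccl11 was at 0.369, 0.277 and 0.289 in papain+MSC-Exos libraries against 0.821, 1.01 and 0.651 in control libraries, all lower, with a log2 change of -0.47 ± 0.13 (adjusted p = 0.0287). This last call was lost without control library 1 (adjusted p = 0.0701), control library 2 (0.0795) or any 1 papain+MSC-Exos library (0.0558 to 0.0835), and with no filter (0.0520).

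Ccl24 (eotaxin-2, ENSMUSG00000004814, chr5:135569937-135573049, minus strand) was near the limit of detection outside the papain group. It had 0.144, 0 and 0.222 FPKM in papain+MSC-Exos libraries, 3.82, 2.59 and 3.17 FPKM in papain libraries and 0.0261, 0 and 0.0565 FPKM in control libraries. At the rough depths these correspond to about 2.82, 0 and 4.81 fragments with MSC-Exos, 83.3, 71.0 and 97.1 fragments after papain, and 0.815, 0 and 1.80 fragments in control. The papain+MSC-Exos and control libraries overlapped, and no fold against either group is given at such counts. Ccl24 fell by 1.90 ± 0.16 on the log2(FPKM + 1) scale in papain+MSC-Exos against papain libraries as deposited (adjusted p = 5.52e-07), and the scaled change was -2.05 ± 0.10 (adjusted p = 1.55e-05). For papain against control the changes were 2.02 ± 0.16 (adjusted p = 5.84e-08) and 2.12 ± 0.10 (adjusted p = 4.98e-06). With no filter, which removes the dependence on reaching 1 FPKM, papain+MSC-Exos against papain had adjusted p-values of 0.00237 as deposited and 8.58e-04 after scaling for Ccl11, and of 0.00125 and 4.21e-05 for Ccl24. Papain against control with no filter had adjusted p-values of 7.84e-04 and 9.94e-04 for Ccl11 and of 1.44e-04 and 1.59e-05 for Ccl24.

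Genes of the monocyte-attracting cluster on chromosome 11, which holds Ccl2 (82035571 to 82037453), Ccl7 (82045712 to 82047525), Ccl11 and Ccl8 (82115185 to 82116799), had unlike profiles. Ccl8 (ENSMUSG00000009185) had 16.2, 12.6 and 8.31 FPKM in papain+MSC-Exos libraries, 30.1, 22.7 and 19.9 FPKM in papain libraries and 3.63, 1.27 and 2.16 FPKM in control libraries. The 3 groups did not overlap, with the papain+MSC-Exos libraries between the others. Its log2 change in papain+MSC-Exos against papain libraries was -0.94 ± 0.26 as deposited (adjusted p = 0.00528) and -1.60 ± 0.25 after scaling (adjusted p = 0.00399). The deposited call was lost when values were rescaled to TPM (-0.59, adjusted p = 0.0841). Ccl8 stayed above control in papain+MSC-Exos libraries, by 2.01 ± 0.26 as deposited (adjusted p = 1.81e-05) and 1.22 ± 0.25 after scaling (adjusted p = 0.00885). Papain against control gave its log2 changes of 2.95 ± 0.26 (adjusted p = 2.63e-07) and 2.82 ± 0.25 (adjusted p = 2.53e-04).

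Ccl7 (ENSMUSG00000035373), a ligand of CCR2 and CCR3, was expressed below Ccl8 in every library. It had 1.11, 1.27 and 0.679 FPKM in papain+MSC-Exos libraries, 1.70, 1.11 and 2.45 FPKM in papain libraries and 0.475, 0.764 and 0.389 FPKM in control libraries. The papain+MSC-Exos libraries overlapped both other groups as deposited. The change of Ccl7 for papain against control was 0.81 ± 0.19 as deposited (adjusted p = 0.0185) and 0.75 ± 0.15 after scaling (adjusted p = 0.0144). The deposited call was lost with no filter (adjusted p = 0.119) and without control library 1 (adjusted p = 0.0687), control library 3 (0.0929) or papain library 3 (0.164), and the scaled one without control library 3 (0.0606). With MSC-Exos the change from papain was -0.43 ± 0.19 as deposited, which missed the threshold (adjusted p = 0.0568), and -0.78 ± 0.15 after scaling (adjusted p = 0.00713). The changes of Ccl7 from control in papain+MSC-Exos libraries, 0.38 ± 0.19 (adjusted p = 0.0674) and -0.03 ± 0.15 (adjusted p = 0.912), differed in sign between the scales and neither was called.

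Ccl2 (ENSMUSG00000035385), the main ligand of CCR2, had 1.63, 0.798 and 0.775 FPKM in papain+MSC-Exos libraries, 0.920, 0.50 and 0.968 FPKM in papain libraries and 0.365, 0.377 and 0.389 FPKM in control libraries. Every library of both papain-treated groups lay above every control library as deposited, while the 2 papain-treated groups overlapped. In the fit with no filter its log2 change was 0.19 ± 0.16 for papain+MSC-Exos against papain (adjusted p = 0.368), 0.56 ± 0.16 for papain+MSC-Exos against control (adjusted p = 0.0163) and 0.37 ± 0.16 for papain against control (adjusted p = 0.359). After scaling the adjusted p-values were 0.411, 0.265 and 0.108 in the same order. The annotation places the antisense gene Gm17268 over Ccl2, and without the strand setting of the counting reads of the pair cannot be told apart.

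Ccl5 (ENSMUSG00000035042, chr11:83525778-83530518, minus strand), a chemokine of T cells and NK cells, followed another pattern. It had 5.59, 3.71 and 1.47 FPKM in papain+MSC-Exos libraries, 0.783, 1.11 and 1.37 FPKM in papain libraries and 0.860, 0.920 and 0.661 FPKM in control libraries. The papain+MSC-Exos libraries lay above the other 6 as deposited, and papain and control overlapped. Ccl5 was higher with MSC-Exos than after papain by 1.04 ± 0.25 as deposited (adjusted p = 0.00276), but the scaled change of 0.52 ± 0.22 missed the threshold (adjusted p = 0.101). The scaled change of Ccl5 passed it without papain+MSC-Exos library 3 (0.76, adjusted p = 0.0146). Against control the change with MSC-Exos was 1.23 ± 0.25 (adjusted p = 3.93e-04) as deposited and 0.62 ± 0.22 (adjusted p = 0.0623) after scaling. Papain against control was not called for Ccl5 on either scale, with changes of 0.20 ± 0.25 (adjusted p = 0.708) and 0.10 ± 0.22 (adjusted p = 0.814).

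The CCR4 ligands Ccl17 and Ccl22 lie in the same region of chromosome 8 (94810453 to 94812036 and 94745590 to 94751699). Ccl17 (ENSMUSG00000031780) had 1.07, 0.832 and 0.116 FPKM in papain+MSC-Exos libraries, 2.64, 2.34 and 2.98 FPKM in papain libraries and 1.02, 0.584 and 0.558 FPKM in control libraries. The papain libraries stood above the rest, and the lowest papain+MSC-Exos library was below every control library. At the rough depth that lowest library held about 1 fragment of Ccl17, so its place below control is uncertain. In papain+MSC-Exos against papain libraries Ccl17 changed by -1.17 ± 0.21 as deposited (adjusted p = 5.48e-04) and -1.50 ± 0.17 after scaling (adjusted p = 0.00167). The changes from control with MSC-Exos were -0.08 ± 0.21 (adjusted p = 0.718) and -0.47 ± 0.17 (adjusted p = 0.0680), and those of papain from control were 1.09 ± 0.21 (adjusted p = 0.00308) and 1.03 ± 0.17 (adjusted p = 0.00607). The deposited papain call of Ccl17 was lost with no filter (adjusted p = 0.0673) and the scaled one with a pseudocount of 0.1 (adjusted p = 0.0524). Ccl22 (ENSMUSG00000031779) had 0.756, 0.367 and 0.303 FPKM in papain+MSC-Exos libraries, 0.559, 0.288 and 0.694 FPKM in papain libraries and 0.159, 0.107 and 0.308 FPKM in control libraries. Its papain+MSC-Exos and papain libraries spanned nearly the same range, and in the fit with no filter it was not called in any comparison on either scale (lowest adjusted p = 0.0770, papain+MSC-Exos against control as deposited).

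Both epithelial chemokines were above control in every library given papain, and Ccl20 varied widely among the papain libraries. Ccl20 (ENSMUSG00000026166, chr1:83116766-83119167) had 8.49, 3.14 and 2.18 FPKM in papain+MSC-Exos libraries, 14.6, 3.05 and 27.0 FPKM in papain libraries and 1.20, 0.545 and 1.13 FPKM in control libraries. Papain library 2 lay among the papain+MSC-Exos libraries. The change of Ccl20 with MSC-Exos against papain was -1.27 ± 0.46 as deposited (adjusted p = 0.0238) and -1.83 ± 0.52 after scaling (adjusted p = 0.0275). It did not hold without papain library 3 (-0.67, adjusted p = 0.162 as deposited, and -1.26, adjusted p = 0.0769 scaled) or without papain+MSC-Exos library 3 (adjusted p = 0.0651 and 0.0642), and with no filter it was lost on both scales (0.135 and 0.0618). The scaled call was also lost without papain library 1 (adjusted p = 0.0586) or papain+MSC-Exos library 2 (0.0852).

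Papain raised Ccl20 by 2.64 ± 0.46 over control as deposited (adjusted p = 0.00173) and 2.56 ± 0.52 after scaling (adjusted p = 0.0151). With no filter the deposited call was lost (adjusted p = 0.119), and the scaled one was lost without control library 2 (0.0601) or control library 3 (0.0508). Against control, papain+MSC-Exos libraries were higher in Ccl20 by 1.37 ± 0.46 as deposited (adjusted p = 0.0112), a call lost without papain+MSC-Exos library 1 (0.91, adjusted p = 0.0784), and by 0.73 ± 0.52 after scaling (adjusted p = 0.313).

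Ccl28 (ENSMUSG00000074715, chr13:119623819-119654359) had 39.8, 28.9 and 24.8 FPKM in papain+MSC-Exos libraries, 16.3, 16.9 and 26.9 FPKM in papain libraries and 9.29, 7.24 and 6.77 FPKM in control libraries. It was above control in each of the 6 libraries given papain, and papain library 3 overlapped the papain+MSC-Exos group. Scaled, the papain+MSC-Exos libraries were at 22.8, 18.1 and 21.1, the papain libraries at 15.3, 23.8 and 27.7 and the control libraries at 12.1, 9.49 and 8.85. The direction of Ccl28 with MSC-Exos against papain therefore turned with the scaling, from 0.62 ± 0.22 as deposited (adjusted p = 0.0216) to -0.07 ± 0.20 (adjusted p = 0.819), and the deposited call was also lost without papain library 1 (adjusted p = 0.0569), papain library 2 (0.0683) or papain+MSC-Exos library 1 (0.132), and with no filter (0.0557). Its rise over control held on both scales, by 1.86 ± 0.22 (adjusted p = 8.39e-06) and 0.96 ± 0.20 (adjusted p = 0.00823) with MSC-Exos and by 1.24 ± 0.22 (adjusted p = 0.00210) and 1.03 ± 0.20 (adjusted p = 0.0113) after papain. The scaled papain call was lost without control library 3 (adjusted p = 0.0527).

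**Figure D2:**
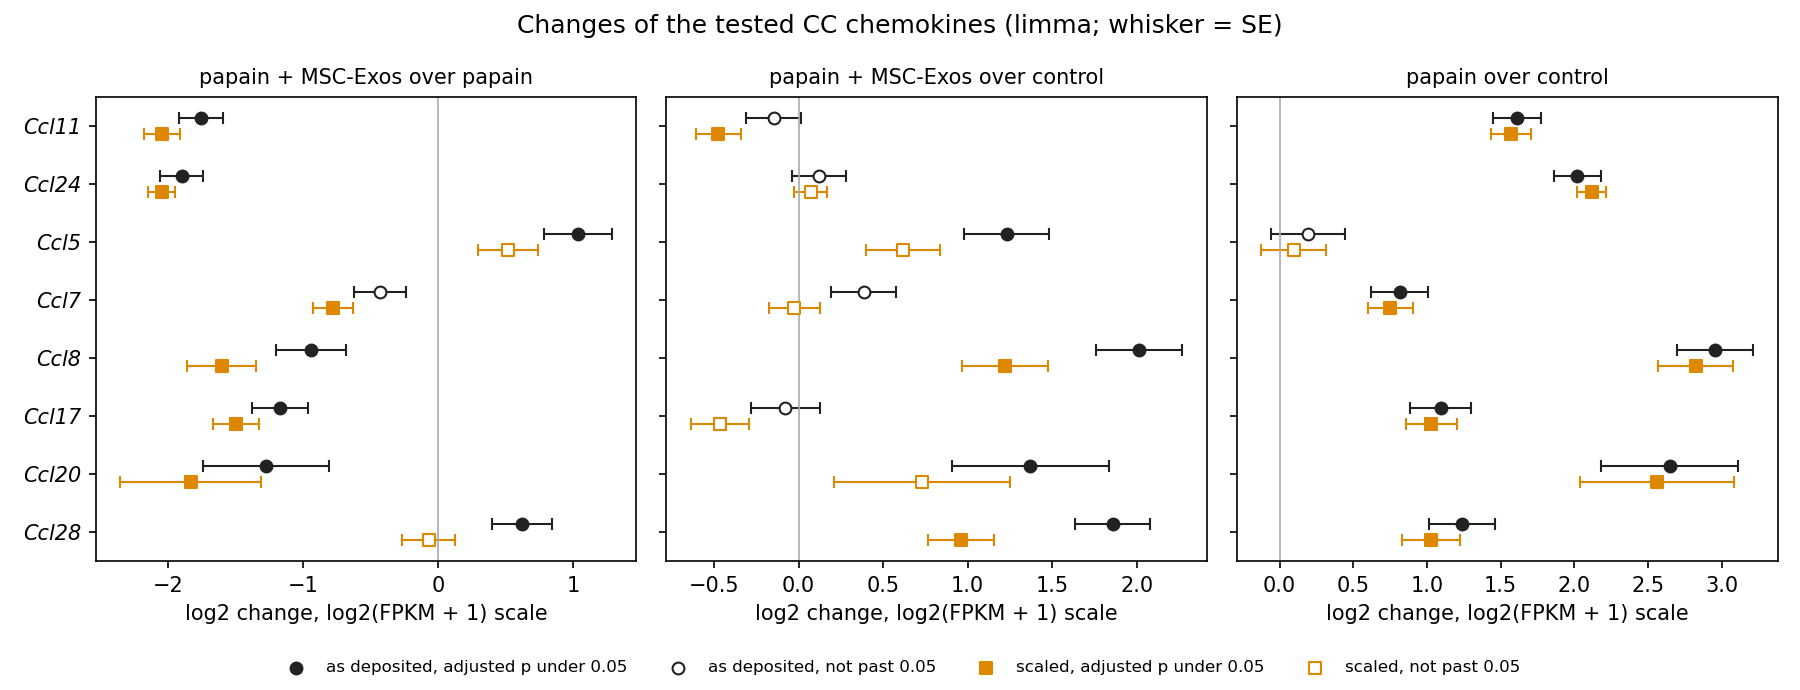
Log2 change on the log2(FPKM + 1) scale (x axis) of the 8 tested CC chemokines (y axis) in the 3 comparisons, as deposited (circles) and scaled (squares); filled symbols have a limma adjusted p under 0.05 and whiskers are SE. Ccl11, Ccl24, Ccl7, Ccl8, Ccl17 and Ccl20 are below 0 for papain+MSC-Exos over papain on both scales, while Ccl28 crosses 0 after scaling.

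In the following counts by libraries, the shares are over genes that passed the filter, while the 10 chemokines include Ccl2 and Ccl22, which did not. Counted by libraries instead of calls, 4 of the 10 genes (Ccl8, Ccl11, Ccl17 and Ccl24) had every papain+MSC-Exos library below every papain library as deposited and 1 (Ccl5) had every one above, where 0.816% and 57.5% of genes did. After scaling Ccl7 joined these 4 and 0 were wholly above, where 23.8% of genes were wholly below and 21.1% wholly above. Against control, papain+MSC-Exos libraries were wholly above for 5 genes as deposited (Ccl2, Ccl5, Ccl8, Ccl20 and Ccl28) and wholly below for 0, where 87.5% and 0.589% of genes were. After scaling they were wholly above for 4 (Ccl5, Ccl8, Ccl20 and Ccl28) and wholly below for 2 (Ccl11 and Ccl17), where 23.0% and 23.9% of genes were. Papain libraries were wholly above control for 8 genes and wholly below for 0 as deposited, where 20.7% and 2.42% of genes were, and for 9 and 0 after scaling, where 15.8% and 14.7% were. Ccl5 overlapped on both scales and Ccl22 as deposited.

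The share that each gene takes of the set's summed level within a library does not depend on the scaling. Summed over the 10 genes, the deposited level was 39.2 to 75.4 FPKM in papain+MSC-Exos libraries, 54.6 to 89.1 FPKM in papain libraries and 12.6 to 17.6 FPKM in control libraries. The sum itself moves with the scaling, and scaled it was 32.6 to 43.2 with MSC-Exos, 70.8 to 91.8 after papain and 16.5 to 23.1 in control, with no overlap. Of the sum Ccl28 held 57.1% ± 5.45 with MSC-Exos, 27.6% ± 5.19 after papain and 54.2% ± 2.92 in control (SD, n = 3 each). The range of Ccl28 shares in papain libraries, 21.6% to 31.0%, did not overlap the 52.7% to 63.2% of papain+MSC-Exos libraries or the 52.4% to 57.6% of control libraries. Ccl24 held 0.253% ± 0.288 with MSC-Exos, 4.45% ± 0.793 after papain and 0.195% ± 0.222 in control. Ccl11 held 0.858% ± 0.0102 with MSC-Exos, 5.68% ± 1.61 after papain and 4.52% ± 1.41 in control, so that its share with MSC-Exos was below that of every papain and control library.

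Ccl8 held 22.3% ± 1.67 of the sum with MSC-Exos, 34.6% ± 10.7 after papain and 15.8% ± 5.32 in control. Ccl20 held 7.62% ± 3.16 with MSC-Exos, 18.4% ± 12.4 after papain and 6.62% ± 2.21 in control, and in papain libraries its share ran from 5.58% to 30.3%. Ccl5 held 6.10% ± 2.03 with MSC-Exos, 1.53% ± 0.495 after papain and 5.77% ± 1.35 in control. Ccl17 held 1.11% ± 0.706, 3.70% ± 0.505 and 4.91% ± 0.766 of the sum with MSC-Exos, after papain and in control. The other 3 genes, Ccl2, Ccl7 and Ccl22, held mean shares of 0.681% to 3.92% in the 3 groups.

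**Figure D3:**
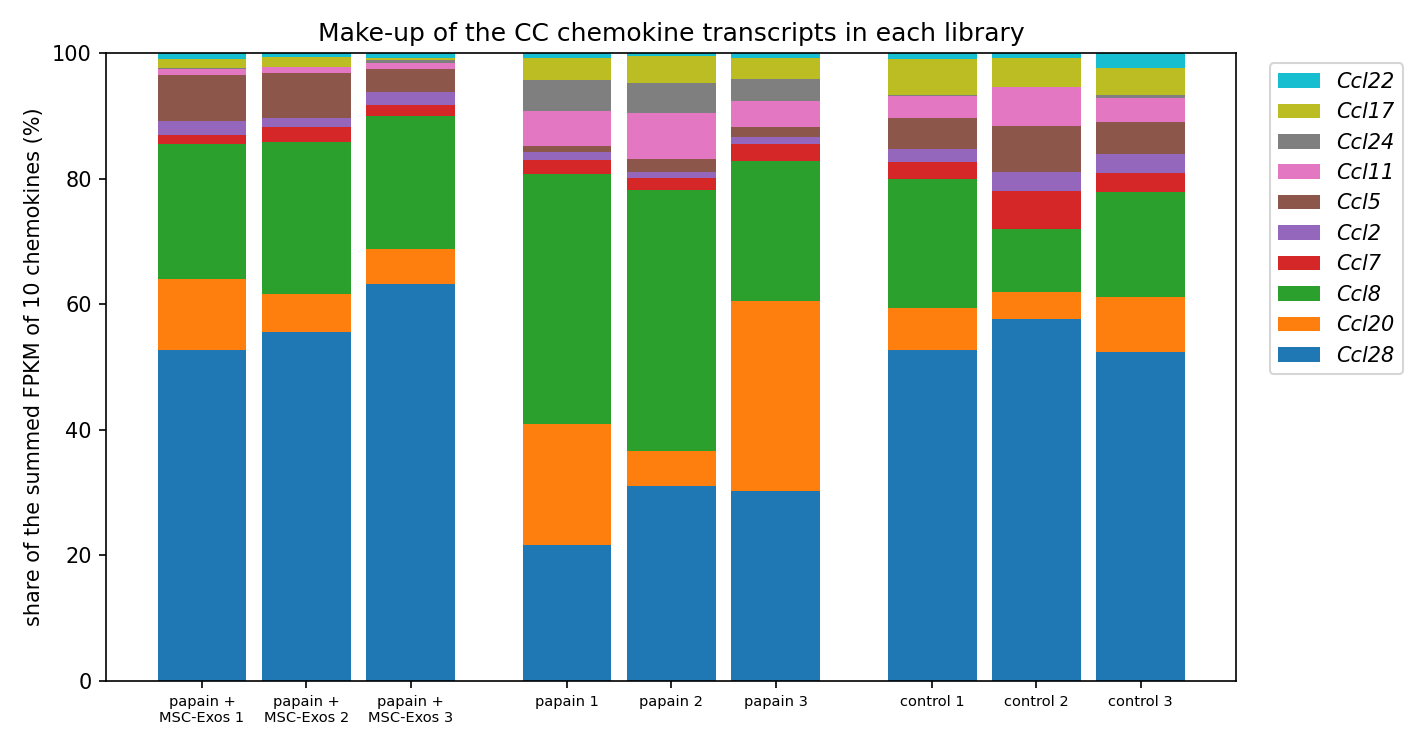
Share of the summed FPKM of the 10 CC chemokines (y axis, percent) held by each gene, stacked for each library (x axis). Ccl28 holds at least 52.4% of the sum in papain+MSC-Exos and control libraries, and at most 31.0% in papain libraries, where Ccl8, Ccl20, Ccl11 and Ccl24 take more of it on average.

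In order of mean level per length, papain+MSC-Exos libraries ran from Ccl28 (31.1 FPKM) through Ccl8 (12.4 FPKM), Ccl20, Ccl5, Ccl2, Ccl7, Ccl17, Ccl11 and Ccl22 to Ccl24 (0.122 FPKM). Among neighbours in this order, Ccl28 with Ccl8 and Ccl22 with Ccl24 did not overlap, and the other pairs did. In papain libraries the order was Ccl8 (24.2 FPKM), Ccl28 (20.0 FPKM), Ccl20 (14.9 FPKM), Ccl11, Ccl24, Ccl17, Ccl7, Ccl5, Ccl2 and Ccl22 (0.513 FPKM), and every pair of neighbours overlapped. In control libraries it was Ccl28 (7.77 FPKM), Ccl8 (2.35 FPKM), Ccl20 (0.958 FPKM), Ccl5, Ccl17, Ccl11, Ccl7, Ccl2, Ccl22 and Ccl24 (0.0275 FPKM), where Ccl28, Ccl8 and Ccl20 were separated from each other, as were Ccl2, Ccl22 and Ccl24, and the other pairs overlapped.

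Ratios of chemokine pairs within a library were compared with an exact two-sided permutation test, which cannot go below p = 0.1 with 3 libraries against 3, over 15 tests in all. The ratio of Ccl11 over Ccl24, among the 15, is not given because Ccl24 rests on few fragments outside the papain group. The log2 ratio of Ccl11 over Ccl2, from the same cluster, was -0.98 ± 0.24 with MSC-Exos, 2.23 ± 0.49 after papain and 0.60 ± 0.29 in control (SD, n = 3 each). Its groups did not overlap in any of the 3 comparisons (exact permutation p = 0.1, adjusted p = 0.167 in each), and the difference was -3.21 for papain+MSC-Exos against papain, -1.58 for papain+MSC-Exos against control and 1.63 for papain against control. Ccl8 over Ccl2 was 3.44 ± 0.33 with MSC-Exos, 4.79 ± 0.52 after papain and 2.24 ± 0.74 in control, again without overlap (exact permutation p = 0.1, adjusted p = 0.167 in each comparison). Ccl17 over Ccl22 was 0.18 ± 0.98 with MSC-Exos, 2.22 ± 0.38 after papain and 1.51 ± 0.73 in control. Of these, papain+MSC-Exos and papain did not overlap (exact permutation p = 0.1, adjusted p = 0.167). Outside the papain group this ratio also rests on few fragments, at the rough depths about 1 of Ccl17 in papain+MSC-Exos library 3. In control library 2 it rests on about 4.97 of Ccl17 and 4.12 of Ccl22. Ccl28 over Ccl20 was 2.94 ± 0.65 with MSC-Exos, 0.86 ± 1.36 after papain and 2.95 ± 0.52 in control, and papain and control alone did not overlap (exact permutation p = 0.1, adjusted p = 0.167).

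Of the 9 CC chemokine receptors analysed, 2 passed the filter. Ccr2, the monocyte receptor for Ccl2 and Ccl7, was above both of these ligands in all 9 libraries and had 3.09, 2.23 and 2.30 FPKM in papain+MSC-Exos libraries, 2.73, 2.61 and 3.65 FPKM in papain libraries and 0.853, 0.957 and 1.10 FPKM in control libraries. Its change with MSC-Exos against papain was -0.18 ± 0.18 as deposited (adjusted p = 0.377) and -0.67 ± 0.13 after scaling (adjusted p = 0.00713), and against control it was 0.84 ± 0.18 (adjusted p = 5.38e-04) and 0.25 ± 0.13 (adjusted p = 0.171). Papain raised Ccr2 over control by 1.01 ± 0.18 (adjusted p = 0.00180) and 0.92 ± 0.13 (adjusted p = 0.00263). Ccr1, a receptor for Ccl5 and Ccl7 on myeloid cells, had 3.06, 2.47 and 1.69 FPKM with MSC-Exos, 3.16, 1.42 and 3.96 FPKM after papain and 1.02, 0.686 and 0.766 FPKM in control. It rose after papain by 1.02 ± 0.23 as deposited (adjusted p = 0.0132) and by 0.92 ± 0.17 after scaling (adjusted p = 0.00982). The deposited call was lost with no filter (0.138) and without control library 2 (0.0744) or papain library 3 (0.125). The scaled change of Ccr1 with MSC-Exos against papain, -0.60 ± 0.17 (adjusted p = 0.0260), was lost without any 1 of papain libraries 1 and 3 and the 3 papain+MSC-Exos libraries (adjusted p = 0.0505 to 0.0744), and with no filter (0.0554).

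Ccr3, the eotaxin receptor of eosinophils, was near the floor with 0.0924, 0.151 and 0.0493 FPKM in papain+MSC-Exos libraries, 0.124, 0.121 and 0.0973 FPKM in papain libraries and 0.0251, 0.0371 and 0.0927 FPKM in control libraries. Papain and papain+MSC-Exos libraries overlapped. Ccr4, the receptor for Ccl17 and Ccl22, had 1.70, 0.766 and 0.334 FPKM with MSC-Exos, 0.158, 0.105 and 0.288 FPKM after papain and 0, 0.0314 and 0 FPKM in control, so that the 3 groups did not overlap as deposited. In the fit with no filter its change with MSC-Exos against papain was called as deposited (0.65 ± 0.20, adjusted p = 0.0322) and not after scaling (0.38 ± 0.14, adjusted p = 0.0962). Its deposited order differed from that of Ccl17, whose papain libraries were highest. Among the rest, Ccr7, which guides dendritic cells and lymphocytes, averaged 0.630, 0.366 and 0.117 FPKM as deposited in the papain+MSC-Exos, papain and control groups. With no filter its limma change with MSC-Exos against papain was 0.24 ± 0.13 as deposited (adjusted p = 0.167) and 0.01 ± 0.10 scaled (adjusted p = 0.954). Against control with MSC-Exos it was called as deposited (adjusted p = 0.00930) and not after scaling (0.0819). Ccr6, Ccr8, Ccr9 and Ccr10 had means of 0.0792, 0.145, 0.367 and 0.290 FPKM with MSC-Exos, 0.132, 0.118, 0.19 and 0.132 FPKM after papain and 0.0169, 0.0118, 0.111 and 0.128 FPKM in control. These levels are as deposited, and with no filter none of these receptors was called with MSC-Exos against papain on either scale.

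**Figure D4:**
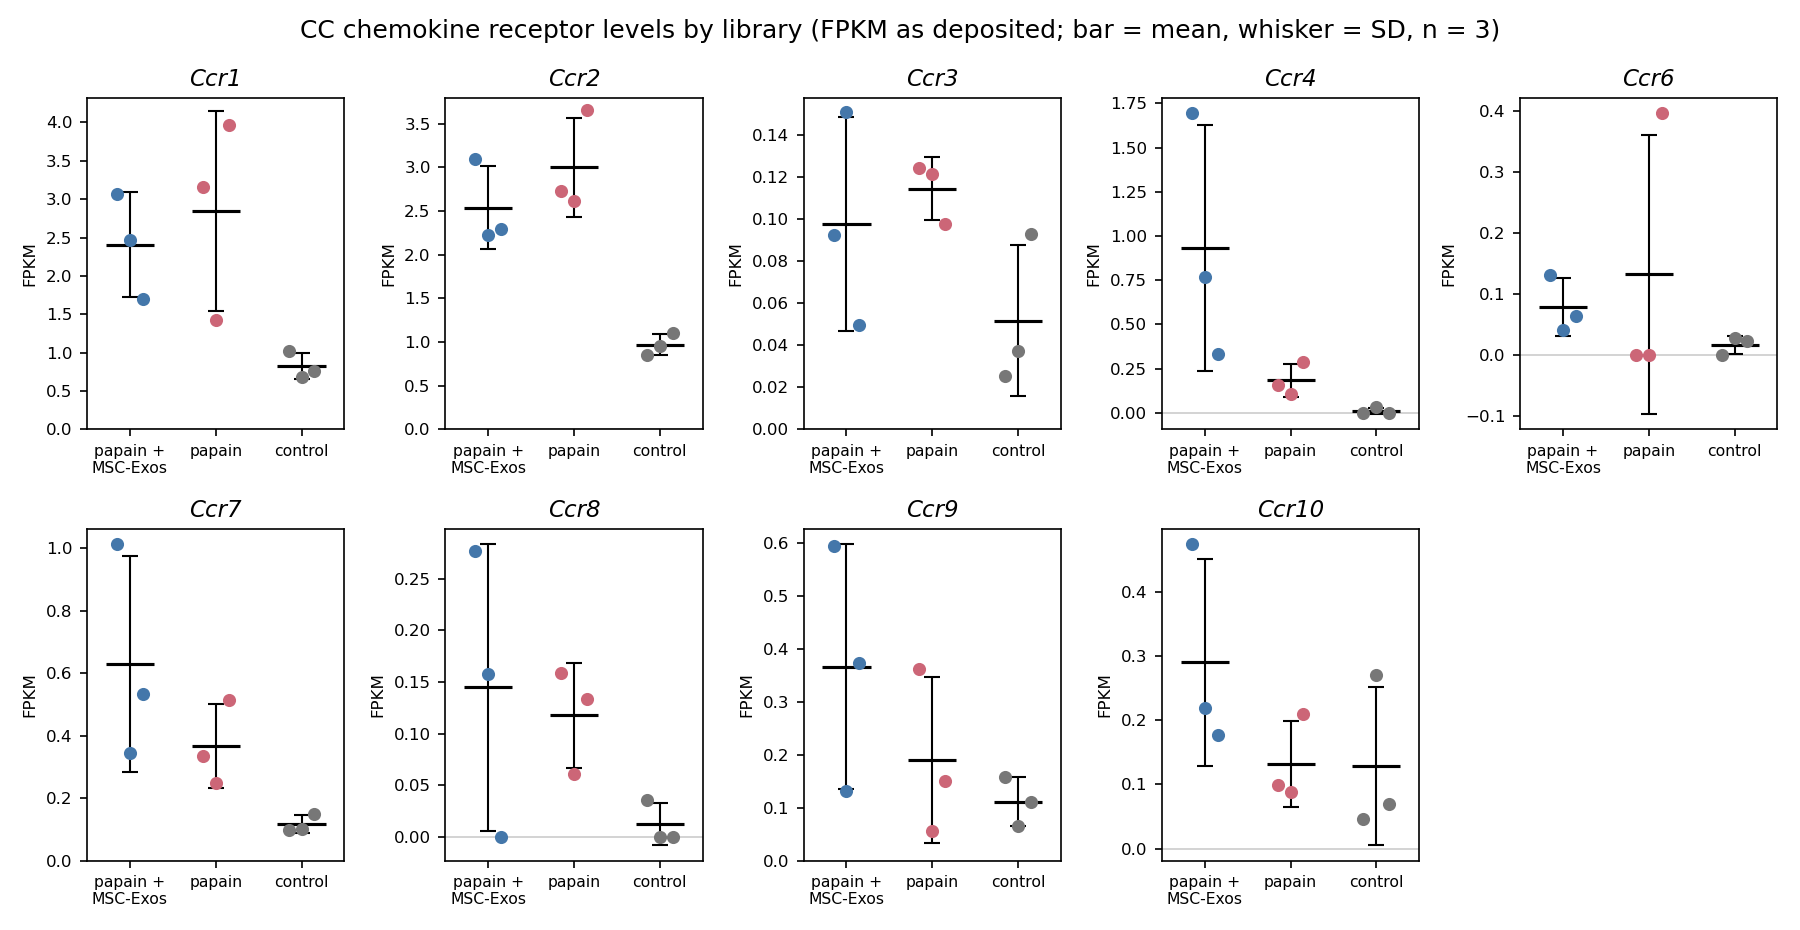
Level of the 9 CC chemokine receptors analysed, in FPKM as deposited (y axis) in the 3 papain+MSC-Exos, 3 papain and 3 control libraries (x axis); points are libraries, bars are means and whiskers are SD. Ccr1 and Ccr2 are the highest receptors, and Ccr3 stays at or below 0.151 FPKM in every library.

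Among 11 other CC chemokines, 8 were tested as deposited and 7 after scaling. With MSC-Exos against papain, deposited values gave 2 higher and 1 lower (median log2 change -0.13) and scaled values 1 higher and 2 lower (median -0.47). Over all genes 63.0% were called higher and 0.730% lower as deposited (median 0.56), and 13.4% and 16.2% scaled. With MSC-Exos against control, deposited values gave 4 higher and 0 lower (median 0.58) and scaled values 0 in either direction (median -0.16, with 2 lower at an unadjusted limma p under 0.05). All genes together had 84.3% called higher and 0.526% lower as deposited (median 0.76), and 12.3% and 15.6% scaled. For papain against control, deposited values gave 2 higher and 0 lower (median 0.80) and scaled values 1 of each (median 0.60). Here 3.01% of all genes were called higher and 0.518% lower as deposited, and 5.77% and 4.15% scaled. Ccl6, a macrophage chemokine found in rodents, averaged 5.08 ± 1.71 FPKM with MSC-Exos, 9.80 ± 2.13 FPKM after papain and 3.42 ± 1.44 FPKM in control. It changed by -0.85 ± 0.24 (adjusted p = 0.00680) as deposited and -1.43 ± 0.21 (adjusted p = 0.00333) after scaling with MSC-Exos against papain, and the deposited call was lost when rescaled to TPM (-0.54, adjusted p = 0.115). For papain against control Ccl6 changed by 1.32 ± 0.24 as deposited (adjusted p = 0.00250, lost with no filter at 0.0713) and 1.14 ± 0.21 after scaling (adjusted p = 0.0102). Ccl9, another macrophage chemokine, was lower with MSC-Exos than after papain by -1.08 ± 0.18 after scaling (adjusted p = 0.00431), while its deposited change of -0.46 ± 0.22 was not called (adjusted p = 0.0765). Ccl12, in the same cluster between Ccl11 and Ccl8, averaged 2.84 ± 0.829 FPKM with MSC-Exos, 2.75 ± 1.06 FPKM after papain and 1.12 ± 0.283 FPKM in control, and MSC-Exos against papain was not called on either scale (adjusted p = 0.840 and 0.105). Ccl26, the third eotaxin of humans, was listed at 0 in all 9 libraries. Over the transcripts of the clustered chemokines the longest shared stretch was 23 bases, between Ccl2 and Ccl7, and Ccl11 shared at most 21 bases with Ccl12.

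Among the cytokines of type 2 inflammation, Il4 had 3.27, 2.82 and 1.66 FPKM in papain+MSC-Exos libraries, 1.59, 0.661 and 1.36 FPKM in papain libraries and 1.06, 1.30 and 1.15 FPKM in control libraries. It was highest in the papain+MSC-Exos libraries as deposited, with a log2 change of 0.70 ± 0.20 against papain (adjusted p = 0.00760), but the scaled change of 0.25 ± 0.12 was not called (adjusted p = 0.144). Il13 had 0.137, 0.080 and 0 FPKM in papain+MSC-Exos libraries, 0.60, 0.454 and 0.746 FPKM in papain libraries and 0, 0 and 0.0275 FPKM in control libraries, and Il5, a survival factor of eosinophils, averaged 0.104, 0.75 and 0.0697 FPKM in these groups. Il13 and Il5 were highest in every papain library, unlike Il4, and neither passed the filter. Of 12 genes of IL-4 and IL-13 signalling, 8 were tested. With MSC-Exos against papain, deposited values gave 4 higher and 1 lower (median log2 change 0.41) and scaled values 0 higher, also at an unadjusted limma p under 0.05, and 3 lower (median -0.20). Over all genes 63.0% were called higher and 0.730% lower as deposited (median 0.56), and 13.4% and 16.2% scaled. With MSC-Exos against control, deposited values gave 8 higher (median 0.97), where 84.3% of all genes were called higher (median 0.76), and scaled values 2 higher (median 0.11), with 0 lower on either scale, also unadjusted. For papain against control each scale gave 4 higher (medians 0.62 and 0.42) and 0 lower, also unadjusted. Here 3.01% of all genes were called higher as deposited and 5.77% scaled. Scaled values called 12.3% of all genes higher with MSC-Exos against control.

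Cish, a feedback inhibitor induced by STAT signalling, averaged 1.89 ± 0.483 FPKM with MSC-Exos, 3.66 ± 1.17 FPKM after papain and 0.984 ± 0.381 FPKM in control. It changed by -0.67 ± 0.21 as deposited (adjusted p = 0.0107) and -1.13 ± 0.17 after scaling (adjusted p = 0.00354) with MSC-Exos against papain. The deposited call was lost when rescaled to TPM (-0.44, adjusted p = 0.169) and, with a filter in 2 libraries, without papain library 1 (adjusted p = 0.0519). Cish changed by 1.22 ± 0.21 (adjusted p = 0.00132) and 1.13 ± 0.17 (adjusted p = 0.00393) for papain against control. The receptor chain Il13ra1 and the kinase Jak2 were lower with MSC-Exos than after papain on the scaled values, by -0.62 ± 0.10 (adjusted p = 0.00399) and -0.42 ± 0.07 (adjusted p = 0.00459), and were not called as deposited (0.05 and 0.23, adjusted p = 0.829 and 0.314).

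Genes outside the set with the profile most like each chemokine were found by the root-mean-square difference of centred scaled log2(FPKM + 1) profiles over the 9 libraries. Calcb and Pla2g4c were among the 3 nearest of both eotaxins, at 0.32 and 0.23 for Ccl11 and 0.21 and 0.24 for Ccl24. Arg1, an arginase of alternatively activated macrophages, was the third for Ccl11 (0.35) and the protease inhibitor Serpinb1a the third for Ccl24 (0.28). Ccl8 was nearest to Fer1l6 (0.24), the goblet cell gene Clca1 (0.33) and Mrgprg (0.35). Ccl5 was nearest to the interferon-induced genes Gbp3 (0.13), Rnf213 (0.19) and Gbp6 (0.20), and Ccl28 to the transporter Slc5a9 (0.17), Prom1 (0.17) and the gland product Ltf (0.18). Ccl20 had no gene closer than Il1b, at 0.59. The distance grows with a gene's own spread, so values of different chemokines are not comparable. The mean absolute deviation of the profile was 1.04 for Ccl20 and 0.293 for Ccl5. Ccl7 was nearest to Lpxn (0.13) and Ccl17 to Ccl6 (0.25).

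Markers of cells that could make or follow these chemokines moved as well, and their part in the results above was not tested. Of 11 eosinophil markers, 3 were tested, with 3 called higher after papain than in control on both scales. For that comparison 3.01% of all genes were called higher as deposited and 5.77% scaled. In papain+MSC-Exos against papain, 1 of the 3 markers was called higher and 1 lower as deposited (median log2 change -0.07). Scaled values called 0 higher, also at an unadjusted limma p under 0.05, and 2 lower (median -0.74). Shares over all genes were 63.0% higher and 0.730% lower as deposited, and 13.4% and 16.2% scaled. Their summed level was 13.9 to 23.7 FPKM in papain+MSC-Exos libraries, 21.7 to 28 FPKM in papain libraries and 4.12 to 5.99 FPKM in control libraries. The scaled sums did not overlap, at 11.8 to 13.6 with MSC-Exos, 22.4 to 33.4 after papain and 5.39 to 7.85 in control. Most of that sum was the lipoxygenase gene Alox15, also made by macrophages and epithelium, while the granule gene Epx did not exceed 0.0145 FPKM in any library and Prg3 was above 0 in 1 library. Ear2, an eosinophil-associated ribonuclease with near-identical copies whose reads may be split, had 1.86, 0.941 and 0.774 FPKM with MSC-Exos, 7.87, 8.42 and 3.68 FPKM after papain and 0.618, 0.560 and 0.906 FPKM in control. It changed by -1.77 ± 0.24 as deposited (adjusted p = 1.93e-04) and -2.19 ± 0.29 after scaling (adjusted p = 0.00263) in papain+MSC-Exos against papain libraries. Ear2 passed the filter through the papain libraries, and with no filter the adjusted p-values were 0.0102 and 0.00692. Other markers of the list differed from Ear2 as deposited, where 63.0% of all genes were called higher. After scaling, 0 of the tested markers were called higher, and Siglecf and Prg2 were not tested. Cd300lf had 3.21, 2.37 and 1.48 FPKM with MSC-Exos and 1.59, 0.641 and 1.77 FPKM after papain. Siglecf had 0.808, 0.635 and 0.254 FPKM with MSC-Exos and 0.195, 0.119 and 0.322 FPKM after papain. Prg2 went with Ear2, at 0.513, 0.457 and 0.425 FPKM with MSC-Exos and 0.922, 0.829 and 0.718 FPKM after papain.

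Of 13 monocyte and macrophage markers, 12 were tested. Deposited values of papain+MSC-Exos against papain called 9 higher and 1 lower, where 63.0% and 0.730% of all genes were. Scaled values called 1 in each direction, where 13.4% of all genes were called higher and 16.2% lower. For papain against control 6 were higher as deposited and 5 after scaling, where 3.01% and 5.77% of all genes were. In that comparison 0 were lower on either scale, also at an unadjusted p under 0.05, where 0.518% and 4.15% of all genes were called lower. With MSC-Exos against control, scaled values called 10 of these markers higher and 1 lower, where 12.3% and 15.6% of all genes were. The deposited sum of the 13 markers was 663 to 966 FPKM with MSC-Exos, 385 to 523 FPKM after papain and 206 to 269 FPKM in control. Most of that sum was Lyz2, with 774, 567 and 536 FPKM with MSC-Exos, 279, 314 and 401 FPKM after papain and 210, 152 and 187 FPKM in control. The scaled sums of the papain-treated groups overlapped, at 466 to 564 with MSC-Exos, 361 to 554 after papain and 271 to 352 in control. Of 10 mast cell and basophil markers 3 were tested, and papain+MSC-Exos against papain called 2 lower and 0 higher on both scales. Of all genes, 0.730% were called lower as deposited and 16.2% scaled, and 63.0% and 13.4% were called higher. The deposited sum of all 10 was 5.04 to 6.42 FPKM with MSC-Exos, 10.2 to 33.9 FPKM after papain and 2.62 to 2.79 FPKM in control. After scaling, the sums with MSC-Exos (3.44 to 4.28) and in control (3.43 to 3.65) overlapped, and papain libraries lay above both. As deposited, Kit had 3.24, 2.82 and 2.43 FPKM with MSC-Exos and 2.38, 1.38 and 2.42 FPKM after papain. Kit was not called higher there on either scale, also at an unadjusted limma p under 0.05. The mast cell protease Mcpt1 had 0.231, 0.550 and 0.440 FPKM with MSC-Exos, 9.35, 14.9 and 3.68 FPKM after papain and 0 FPKM in each control library, with a change of -2.71 ± 0.28 as deposited (adjusted p = 1.15e-05) and -2.98 ± 0.42 after scaling (adjusted p = 0.00297) in papain+MSC-Exos against papain libraries. Mcpt1 reached 1 FPKM in papain libraries alone, so its difference was built into the filter, and with no filter the adjusted p-values were 0.00991 and 0.00801.

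Other lists are given as counts called on scaled values for papain+MSC-Exos against papain. There 13.4% of all genes were called higher and 16.2% lower. Among cells of the stroma and epithelium, 3 of 7 fibroblast, 1 of 4 endothelial and 1 of 7 epithelial markers were lower. The scaled sum of epithelial markers was 431 to 470 with MSC-Exos, 521 to 533 after papain and 351 to 385 in control. The deposited sum stood in another order, at 552 to 794 FPKM with MSC-Exos, 370 to 570 FPKM after papain and 269 to 295 FPKM in control. Among leukocytes, 1 of 5 neutrophil and 1 of 3 B and plasma cell markers were lower. Of 5 dendritic cell markers 1 was called lower, but their median log2 change was 0.39 and 3 were higher at an unadjusted limma p under 0.05. Their scaled sum was 125 to 199 with MSC-Exos, 79.5 to 122 after papain and 45.2 to 62.7 in control. Of 8 olfactory sensory neuron markers 7 were higher, as was 1 of 5 sustentacular cell markers, and 2 of 8 nasal gland products were lower. Of 4 atypical chemokine receptors and 11 genes of TNF, IL-1 and NF-kappaB inputs, 0 were called, and at an unadjusted limma p under 0.05 the second list had 2 lower.

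For papain against control the scaled values called higher 2 of 5 dendritic cell, 3 of 5 neutrophil, 1 of 3 B and plasma cell and 5 of 7 epithelial markers. They called 3 of 11 TNF, IL-1 and NF-kappaB genes higher and 1 lower, and 1 of 5 sustentacular cell markers in each direction. Lower calls were made for 4 of 8 olfactory neuron markers, 1 of 8 gland products, 1 of 7 fibroblast markers and 1 of 4 atypical receptors. Of all genes tested, 5.77% were called higher and 4.15% lower. Of 4 endothelial markers 0 were called, and 1 was higher and 1 lower at an unadjusted limma p under 0.05. No T cell marker of the 7 in the table passed the filter after scaling. As deposited 1 did, and the sum of the 7 was 3.12 to 6.14 FPKM with MSC-Exos, 3.22 to 6.83 FPKM after papain and 1.16 to 1.69 FPKM in control.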

How the data were processed

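The authors deposited 1 table of FPKM values per gene for 9 libraries, with 3 in each group as the sample titles give them. Reads were trimmed with fastp 0.19.4 and processed with HISAT2 and StringTie, with mm10 as the build, as the submitters' processing notes list. The sources used here do not name the annotation or the strand setting. Symbols were found for 21817 of 21930 identifiers, and coordinates are those of GENCODE M21 (GRCm38).

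Genes of at least 1 FPKM in at least 3 libraries were tested in R 4.3.3 by limma 3.58.1, on log2(FPKM + 1), using a mean-variance trend and all libraries in 1 fit (6 residual degrees of freedom), Benjamini-Hochberg adjustment over every tested gene (12738 as deposited, 12507 scaled) and a threshold of 0.05. Ratios used a pseudocount of 0.1. Low values lay near whole multiples of 1 fragment in 15.7% to 21.3% of cases (tolerance 0.05), against 10% for evenly spread values, so no count test was run. Library correlations (Spearman) were 0.959 to 0.983 within and 0.917 to 0.956 between groups.

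The chemokines and the gene lists were chosen with earlier results of these data known. All 10 chemokines are named, 9 CC receptors are given with their levels, and from other lists at most 2 called genes of smallest adjusted p in each comparison of scaled values, of which those nearest to the chemokines' roles are given. Alox15, Ccl12, Ccl26, Cd74, Cd300lf, Epx, H2-Ab1, Il4, Il5, Il13, Kit, Lyz2, Prg2, Prg3 and Siglecf were named after their values were seen. The 3 genes of nearest profile were sought where the highest group mean reached 2 FPKM. Alternatives were other pseudocounts, filters, scalings, fits and left-out libraries. Python 3.11.15, pandas 2.3.3, NumPy 2.4.6, SciPy 1.17.1 and matplotlib 3.10.9 were used.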

Additional observations from a re-analysis of the deposited data

How the results depend on the processing

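Filters moved the member counts most. With no filter, papain against control gave 4 higher as deposited, papain+MSC-Exos against papain gave 1 higher as deposited and papain+MSC-Exos against control 0 lower scaled. A filter at 5 FPKM leaves fewer of the 10 genes to test and gave 3 higher as deposited and 2 scaled for papain against control, 1 higher and 2 lower as deposited and 1 lower scaled for papain+MSC-Exos against papain, and 0 lower scaled for papain+MSC-Exos against control. Quantile normalization and median-of-ratios scaling gave 0 higher for papain+MSC-Exos against papain, and 2 higher and 1 lower for papain+MSC-Exos against control. Requiring a log2 change of at least 1 gave 1 higher as deposited for papain+MSC-Exos against papain, and 1 higher and 0 lower scaled for papain+MSC-Exos against control. Fitting the 2 groups alone gave 0 lower there. A filter in at least 2 libraries with a papain library left out, chosen after seeing the data, gave 1 higher as deposited for papain+MSC-Exos against papain without papain library 1 or 2. The causes of the other changes were not tested.

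With each library left out in turn, papain against control gave 4 to 7 higher on both scales. Papain+MSC-Exos against papain gave 1 to 2 higher and 2 to 5 lower as deposited, and 0 to 1 higher and 3 to 6 lower scaled. Papain+MSC-Exos against control gave 3 to 5 higher as deposited, and 2 to 3 higher and 0 to 1 lower scaled. Without a papain library, Ccl11 and Ccl24 drop below the filter as deposited, which lowers these counts. The ratio of Ccl28 over Ccl20 for papain+MSC-Exos against control was -0.0076 and ran from -0.26 to 0.36.

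Sign reversals are listed where the main fit or the alternative made a call. Under quantile normalization and median-of-ratios scaling they were Il13ra1 (-0.55 and -0.62) and Jak2 (-0.39 and -0.42) in papain+MSC-Exos against papain and Ccl27a (-0.15 and -0.16) in papain+MSC-Exos against control. Cish in papain+MSC-Exos against control reversed under quantile normalization (-0.013), and Ccl28 in papain+MSC-Exos against papain under median-of-ratios scaling (-0.069). A further 42 sign changes over all alternatives were of changes called in neither fit. Ccl7 in papain+MSC-Exos against control was among them, going from 0.38 as deposited to -0.03 under median-of-ratios scaling.

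Shared replicate numbers did not pair the libraries (correlations of same-numbered libraries -0.338 to 0.144), and a replicate block left every member count as it was. Levels under 1 FPKM rest on few fragments at these depths.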
